A study of Rattus norvegicus with 11 samples.

Results

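A set of 10 genes that mark neutrophils was followed in the ileum of rats with severe acute pancreatitis (SAP), a disease in which the gut wall becomes inflamed and leaky. The members were S100a8, S100a9, Csf3r, Itgam, Fpr1, Ncf1, Mmp8, Mmp9, Mpo and Elane, chosen by gene symbol. All 10 were found among the 24481 genes of the read count table and among the 24205 genes of the FPKM table (fragments per kilobase of transcript, scaled to library size). SD rats aged 6 to 8 weeks, male by the study's methods, made up a control group, an SAP group and a JZL184 group. SAP was induced by sodium taurocholate in the pancreatic duct. At 24 h after surgery the control and SAP rats received vehicle into the peritoneum, and the rats of the JZL184 group, which also had SAP, received JZL184 at 10 mg/kg, an inhibitor of monoacylglycerol lipase (MAGL), the enzyme that degrades the endocannabinoid 2-AG. All rats were killed 24 h later. Whether the control rats were operated on is not given in the sources used here, and the treatment label of the control libraries reads control plasmid. RNA of ileal tissue was sequenced in 11 libraries, labelled as 3 control, 4 SAP and 4 JZL184 samples, at a single time point.

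Neutrophils are made in the bone marrow under the growth factor G-CSF (gene Csf3), which acts on the receptor Csf3r. They leave the blood along gradients of chemokines such as Cxcl1 and Cxcl2, which bind the receptor Cxcr2, and they adhere through integrins such as Itgam paired with Itgb2. The mature cell carries abundant S100a8 and S100a9 transcripts, whose proteins form calprotectin, whereas the granule enzymes Mpo and Elane are transcribed mainly in marrow precursors and are stored as protein. In the gut, neutrophils move into the wall and the lumen during acute inflammation. In RNA from whole tissue, fewer cells of a type and less RNA per cell cannot be told apart.

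Depth was similar in all groups, with 26341299 to 33847135 reads on genes per library. Control libraries 1 and 2 were almost the same in their counts, with a chi-square per gene of 2.81 against 77.49 to 563.06 in the other pairs within a group. They were therefore joined as 1 sample, so that the control group had n = 2 (control sample 1-2 and control sample 3). Over Kdm5d, Uty and Eif2s3y, which lie on the Y chromosome, SAP library 2 held 20 reads and the other libraries 1222 to 4665, which goes against the description of the rats as male. Ileal epithelium markers were present in every library, and all libraries also held markers of muscle and stroma, which the cell named in the labels, the intestinal epithelial cell, lacks. JZL184 libraries 1 to 4 held 6918, 132431, 1189 and 97668 reads on Fabp6, the bile acid binding protein of the ileum, so that libraries 1 and 3 were low. JZL184 library 3 was the lowest of all 11 libraries on Fabp6 and also on Fabp2 (4548 reads) and Slc10a2 (549 reads), genes of fatty acid and bile acid uptake. Values of the members without SAP library 2, without JZL184 library 3 and without each control sample are given after the members.

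The promoters of the members are shown for a motif that neutrophil genes are known to share, the core GAGGAA of sites for PU.1, the product of Spi1. The RefSeq table used (build GRCr8, 250 bases before to 50 bases after each gene start) held 7 of the 10 members, Csf3r, Fpr1, Itgam, Mmp8, Mpo, Ncf1 and S100a9. GAGGAA was found on either strand in 5 of these 7 promoters, against 27.6% of all 33469 promoters of the same length. The C/EBP motif TTGCGNAA, which cannot contain it, was found in 0 of the 7, against 0.846% of all promoters. The windows of 60 bases around the match in Csf3r (chr5:143583033-143583092, plus strand), Itgam (chr1:192089414-192089473, plus strand) and S100a9 (chr2:178490799-178490858, minus strand) show the motif in capitals, on the opposite strand in S100a9.
Csf3r: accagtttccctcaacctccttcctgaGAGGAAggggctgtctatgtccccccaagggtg
Itgam: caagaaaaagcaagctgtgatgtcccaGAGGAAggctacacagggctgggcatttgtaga
S100a9: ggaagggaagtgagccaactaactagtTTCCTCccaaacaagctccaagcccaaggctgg
The match began 160 bases before the gene start in Csf3r, 151 before it in Itgam and 209 before it in S100a9. Itgam held another match 39 bases before its start. Fpr1 and Mpo held the motif too, and the Mmp8 and Ncf1 promoters did not hold it in this window.

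Against control, mean levels of S100a8, S100a9, Csf3r, Mmp8, Itgam and Mmp9 were higher in the SAP rats, with log2 fold changes of 0.86 to 5.58. Ncf1 lay near its control level and Mpo was lower in all SAP libraries. Of the 10 members, 8 had enough reads to be tested, and Fpr1 and Elane did not. None of the 8 was called by the quasi-likelihood test of edgeR (threshold 0.05 on the adjusted p, and at least a 2-fold change in either direction), where 0% of the 16029 genes tested were called. At an unadjusted p below 0.05 there were 6 of 8 members, 5 higher and 1 lower, against 9.09% of all genes. By DESeq2 the members Csf3r, S100a8 and S100a9 were called, against 1.14% of 17857 genes, and limma-voom with quality weights called none of the members and 0.0873% of all genes. Normalised counts of the groups did not overlap for 5 of the 8, against 23% of all genes. The median log2 fold change of the 8 was 1.92, beside 0.062 over all genes tested.

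In JZL184 against SAP, no member was called by edgeR, where 0% of 15308 genes were called, and 0 of 8 had an unadjusted p below 0.05, against 21.3% of all genes. DESeq2 called none of the members and 6.98% of all genes, and limma-voom called none of the members and 4.57% of all genes. The calgranulins, Ncf1 and Mmp9 had higher means with JZL184, and Csf3r, Itgam and Mmp8 had lower means, all with overlapping groups. Mpo had a log2 fold change of 0.01. The groups overlapped for 8 of 8 members in normalised counts, where 11.7% of all genes did not overlap. The median log2 fold change was 0.29, beside -0.051 over all genes.

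In JZL184 against control, no member was called by edgeR either, where 2.16% of 15916 genes were called. At an unadjusted p below 0.05 there were 4 of 8 members, 3 higher and 1 lower, against 26.3% of all genes. DESeq2 called Csf3r, S100a8 and S100a9, against 11.7% of 16671 genes, and limma-voom called the same 3, against 18.3% of all genes. Normalised counts did not overlap for 4 of the 8, against 38.3% of all genes. The median log2 fold change was 1.23, beside 0.083 over all genes. Both comparisons with control share the same control samples.

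**Figure D1:**
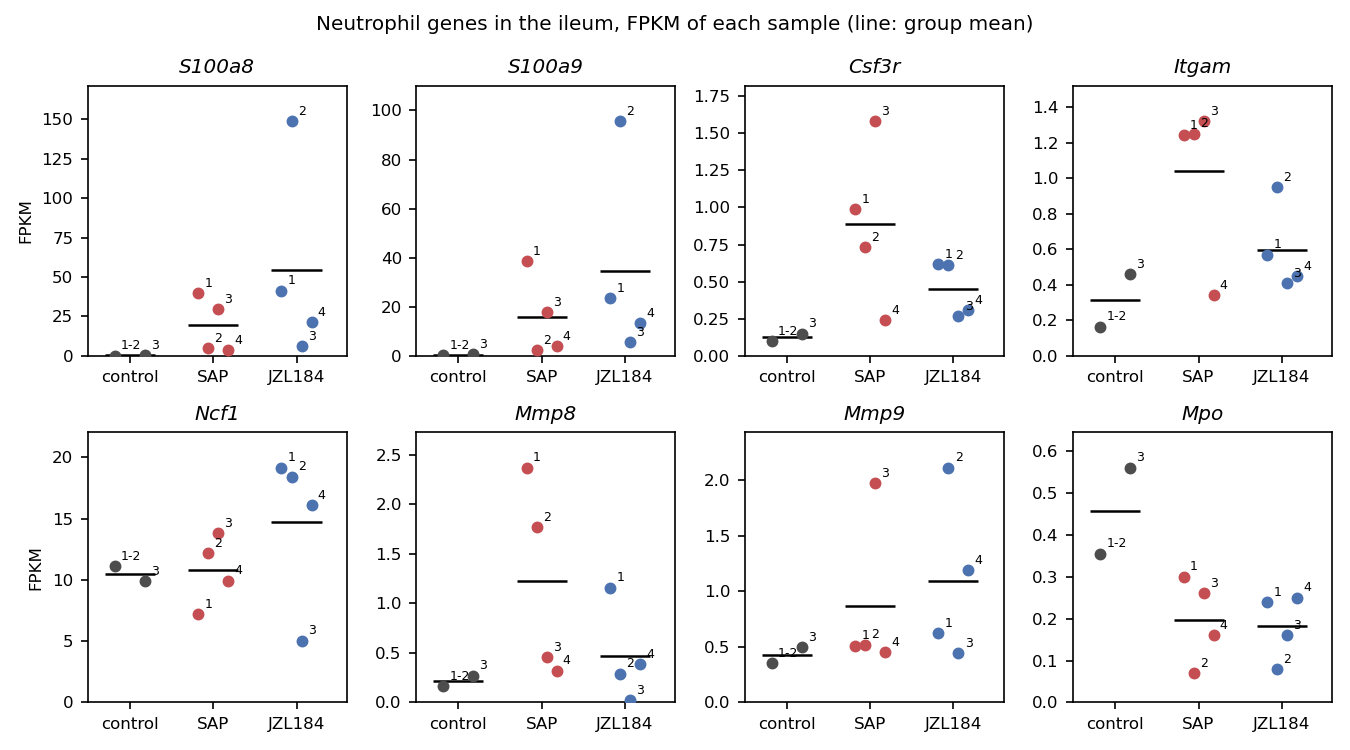
FPKM of the 8 tested neutrophil genes, 1 panel per gene, in the control, SAP and JZL184 samples. Each point is a sample with its replicate number (1-2 is the joined control sample) and the line is the group mean. For S100a8 the control samples lie at 0.13 and 0.63 and JZL184 library 2 at 148.71, while for Mpo both control samples lie above all others.

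S100a8 and S100a9 encode the calcium-binding subunits of calprotectin, which binds zinc and manganese and is measured in stool as a sign of gut inflammation. S100a8 (chromosome 2 of mRatBN7.2) had an FPKM of 0.13 and 0.63 in the control samples, of 39.55, 4.96, 29.51 and 3.56 in SAP libraries 1 to 4, and of 41.42, 148.71, 6.33 and 21.25 in JZL184 libraries 1 to 4. All SAP and JZL184 libraries lay above the control samples, and the SAP and JZL184 libraries overlapped. The group means were 0.38 ± 0.354 (SD, n = 2), 19.4 ± 18 (n = 4) and 54.4 ± 64.5 (n = 4). The log2 fold change of S100a8 was 5.58 (SE 1.38, adjusted p = 0.459) in SAP against control, 1.79 (SE 1.01, adjusted p = 0.317) in JZL184 against SAP and 7.35 (SE 1.65, adjusted p = 0.0594) in JZL184 against control. Control libraries 1, 2 and 3 held 0, 4 and 10 reads, so that the fold changes against control rest on few reads.

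S100a9 (chromosome 2), the partner subunit, ran from 0.385 and 0.72 FPKM in the control samples to 38.51, 2.49, 17.7 and 4.01 in the SAP libraries and 23.52, 95.6, 5.56 and 13.38 in the JZL184 libraries. The order of the libraries was close to that of S100a8, with JZL184 library 2 highest and the control samples lowest. Means were 0.552 ± 0.237 (SD, n = 2), 15.7 ± 16.7 (n = 4) and 34.5 ± 41.4 (n = 4). Its log2 fold change was 4.65 (SE 1.26, adjusted p = 0.459), 1.45 (SE 1, adjusted p = 0.403) and 6.05 (SE 1.39, adjusted p = 0.0624) in the same order of comparisons.

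A single library carried most of the calgranulin difference between JZL184 and SAP. Without JZL184 library 2 the log2 fold change was 0.38 for S100a8 and 0.00 for S100a9, with adjusted p values of 0.849 and 0.999. Offsets for each library's trend on gene length moved S100a8 to 0.87 in this comparison and to 6.46 in SAP against control. By counts and FPKM its transcript model was 0.54 kb long, beside a median of 3.15 kb. In JZL184 against control, S100a8 and S100a9 were called without JZL184 library 1 and without JZL184 library 3, and in 9 of 17 fits in all. Among the 9 were the fits with 3 separate control libraries, which count the nearly identical control libraries 1 and 2 as separate samples. In SAP against control S100a8 and S100a9 were called in 3 of 18 fits. Among these were DESeq2 with 3 separate control libraries and the fit without SAP libraries 1 and 2 (adjusted p = 0.0424 for S100a8 and 0.0159 for S100a9).

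The ratio of S100a8 to S100a9 does not depend on library size. It was 0.338 and 0.875 in FPKM in the control samples, 1.03, 1.99, 1.67 and 0.888 in SAP, and 1.76, 1.56, 1.14 and 1.59 in JZL184. All samples of the SAP and JZL184 groups lay above both control samples, the lowest of them by little. The mean log2 ratio was 0.58 ± 0.27 (SD, n = 4) in JZL184 and 0.40 ± 0.56 (n = 4) in SAP, and the difference of 0.18 had p = 0.6 in a two-sided exact permutation test, in which 0.0286 is the smallest p possible.

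**Figure D2:**
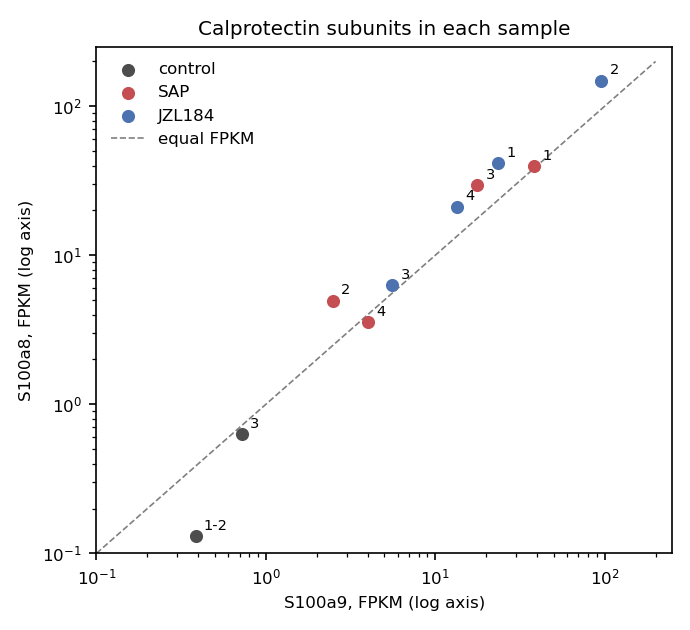
S100a8 against S100a9 in FPKM, both on log axes, with 1 point per sample and its replicate number, coloured by group. The dashed line marks equal FPKM. The control samples lie at the lower left below the line, at ratios of 0.338 and 0.875, and JZL184 library 2 lies at the upper right at 148.71 and 95.6.

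Among the surface receptors, Csf3r (chromosome 5), the receptor of G-CSF, had 0.10 and 0.15 FPKM in the control samples, 0.99, 0.73, 1.58 and 0.24 in SAP and 0.62, 0.61, 0.27 and 0.31 in JZL184. Every SAP and JZL184 library was above both control samples, and SAP library 4 was the lowest of these. Its log2 fold change was 2.64 (SE 0.75, adjusted p = 0.459) in SAP against control, -0.77 (SE 0.55, adjusted p = 0.417) in JZL184 against SAP and 1.84 (SE 0.59, adjusted p = 0.108) in JZL184 against control. Without SAP library 3 the value in JZL184 against SAP was -0.29.

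Itgam (chromosome 1) encodes CD11b, the integrin chain by which neutrophils and macrophages adhere and take up complement-coated particles. It had 0.165 and 0.46 FPKM in the control samples, 1.24, 1.25, 1.32 and 0.34 in SAP and 0.57, 0.95, 0.41 and 0.45 in JZL184. In the SAP group 3 libraries lay close together and above all others, and SAP library 4 fell between the control samples. For Itgam, the log2 fold change was 1.55 (SE 0.64, adjusted p = 0.459), -0.57 (SE 0.47, adjusted p = 0.482) and 0.94 (SE 0.60, adjusted p = 0.343) in SAP against control, JZL184 against SAP and JZL184 against control. It depended on the control sample used, at 1.03 without control sample 1-2 and 2.34 without control sample 3 in SAP against control, and at 0.40 and 1.73 in JZL184 against control.

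Fpr1 (chromosome 1), the receptor for formylated bacterial peptides, had 1 read in SAP library 1, 1 read in JZL184 library 4 and none elsewhere. A count of 0 allows up to 3 reads in a library, for counting error only. Its relative Fpr2 had 1 read in the control group, 7 in SAP and 8 in JZL184. The receptors of this family were thus at the limit of detection, and no difference could be measured at this depth.

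Ncf1 (chromosome 12) encodes p47phox, the organizer of the NADPH oxidase that makes superoxide, and it is also expressed by macrophages and B cells. It had the highest FPKM of the members in the control samples, at 11.1 and 9.88, and it had 7.22, 12.2, 13.9 and 9.94 in SAP and 19.2, 18.4, 5.04 and 16.1 in JZL184. The SAP libraries spread around the control samples, and in the JZL184 group 3 libraries were above all others and library 3 was the lowest of all. It had a log2 fold change of -0.13 (SE 0.35, adjusted p = 0.85), 0.62 (SE 0.43, adjusted p = 0.401) and 0.47 (SE 0.52, adjusted p = 0.588). Without JZL184 library 3 it was 0.92 in JZL184 against SAP and 0.77 in JZL184 against control, neither called.

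Cybb, Cyba, Ncf4 and Rac2, which also encode parts of the oxidase, were not called by edgeR or DESeq2 in any of the 3 comparisons. Cybb, the membrane subunit that carries the electrons, had 2, 5 and 15 reads in the control libraries, 179, 306, 18 and 3 in SAP and 19, 26, 25 and 41 in JZL184. SAP libraries 1 and 2 thus stood above every other library and SAP library 4 was among the lowest. Cyba, Ncf4 and Rac2 had log2 fold changes of -0.23, -0.46 and -0.64 in SAP against control. In JZL184 against control Ncf4 (log2 fold change -0.77) and Cybb (1.70) had unadjusted p values of 0.0249 and 0.0456, and limma-voom called Cybb. These genes were chosen after their values were seen.

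Mmp8 (chromosome 8) is the neutrophil collagenase of the specific granules. It had 0.165 and 0.27 FPKM in the control samples, 2.37, 1.77, 0.46 and 0.32 in SAP and 1.16, 0.29, 0.02 and 0.39 in JZL184. All SAP libraries were above the control samples, and JZL184 library 3, with 1 read, was the lowest of all. The log2 fold change of Mmp8 was 2.29 (SE 0.88, adjusted p = 0.459), -1.19 (SE 0.87, adjusted p = 0.43) and 1.06 (SE 1.07, adjusted p = 0.55). Without SAP libraries 1 and 2 the value in SAP against control was 0.80 and that in JZL184 against SAP turned to 0.29. Without JZL184 library 1 the value was -2.07 in JZL184 against SAP and 0.16 in JZL184 against control.

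Mmp9 (chromosome 3), a gelatinase stored in neutrophil granules and also made by macrophages, had 0.35 and 0.50 FPKM in the control samples, 0.51, 0.52, 1.97 and 0.45 in SAP and 0.62, 2.11, 0.44 and 1.19 in JZL184. SAP library 3 and JZL184 library 2 were far above the rest of their groups, and the groups overlapped. Log2 fold changes of Mmp9 were 0.86 (SE 0.72, adjusted p = 0.551), 0.56 (SE 0.67, adjusted p = 0.634) and 1.39 (SE 0.72, adjusted p = 0.256). It was 0.02 in SAP against control without SAP library 3 and -0.08 in JZL184 against SAP without JZL184 library 2.

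Mmp8 and Mmp9 did not follow the same libraries. The ratio of Mmp8 to Mmp9 in FPKM, chosen after the values were seen, was 4.65 and 3.4 in SAP libraries 1 and 2 and 0.234 and 0.711 in SAP libraries 3 and 4. In JZL184 libraries 1 to 4 it was 1.87, 0.137, 0.0455 and 0.328, and in the control samples it was 0.471 and 0.54. The control samples were close to each other, and the SAP and JZL184 groups spread to both sides of them.

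Mpo (chromosome 10) encodes myeloperoxidase of the azurophil granules. It was the member that was lower than control in both groups, with 37, 34 and 60 reads in control libraries 1 to 3, 37, 8, 26 and 18 in SAP and 27, 8, 16 and 24 in JZL184. In FPKM it had 0.355 and 0.56 in the control samples, 0.07 to 0.30 in SAP and 0.08 to 0.25 in JZL184, without overlap with control. The log2 fold change of Mpo was -1.36 (SE 0.57, adjusted p = 0.459) in SAP against control, 0.01 (SE 0.52, adjusted p = 0.993) in JZL184 against SAP and -1.38 (SE 0.52, adjusted p = 0.146) in JZL184 against control.

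Elane (chromosome 7), neutrophil elastase of the same granules, had no reads in the control libraries, 1, 1, 0 and 0 in SAP and 2, 8, 0 and 0 in JZL184. Pooled over the libraries, the 10 reads of the JZL184 group, 8 of them in library 2, were 2.55-fold the floor of 3 reads over the control group. This allows for counting error only and not for the spread between rats. The 2 reads of the SAP group were under that floor. Prtn3, proteinase 3 of these granules, had 0 reads in control, 6 in SAP and 5 in JZL184.

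**Figure D3:**
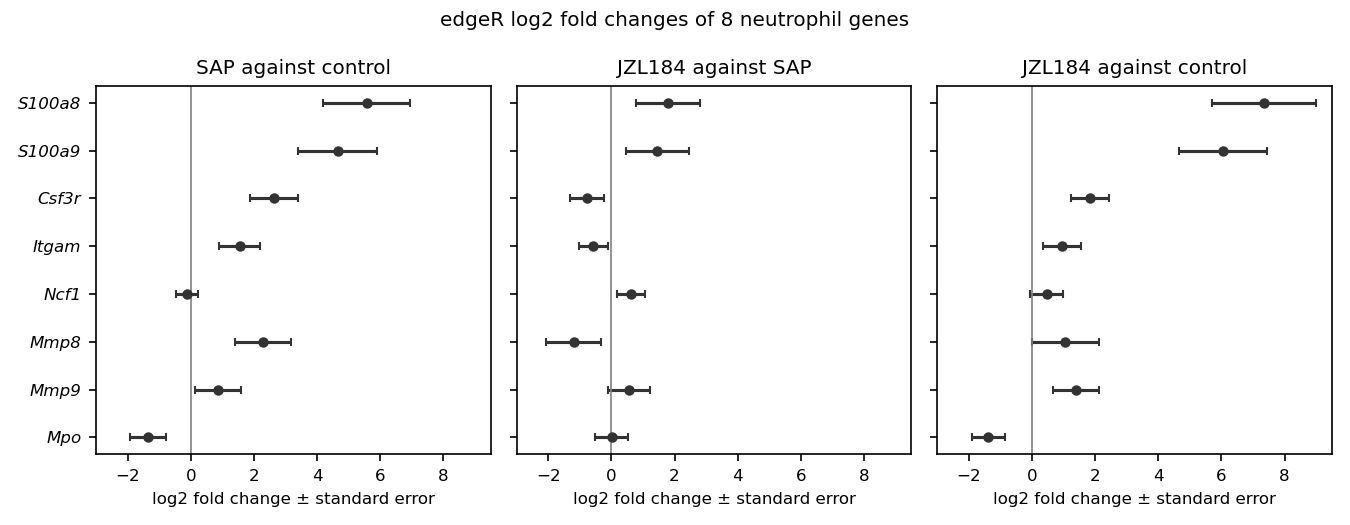
Log2 fold changes of the 8 tested neutrophil genes from edgeR in the 3 comparisons, as points with bars of 1 standard error, with a line at 0. S100a8 and S100a9 lie furthest to the right against control, at 5.58 and 4.65 in SAP and at 7.35 and 6.05 in JZL184, and Mpo lies left of 0 at -1.36 and -1.38.

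Exact two-sided permutation tests of the FPKM of each member, 30 in all and unadjusted, were also run. In SAP against control the smallest p possible with 4 against 2 samples was 0.133, so that no member could pass, and S100a8, S100a9, Csf3r, Mmp8 and Mpo were at that value. In JZL184 against control S100a8, S100a9, Csf3r and Mpo were at it. In JZL184 against SAP, where 0.0286 was possible, the exact permutation p values of the members ran from 0.143 for Itgam to 1 for Fpr1.

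No member was called by edgeR without SAP library 2. With all samples edgeR called 0% of all genes in both comparisons with the SAP group, so that this absence of calls says little. Without SAP library 2 the log2 fold changes in SAP against control were 5.92 for S100a8, 5.02 for S100a9, 2.75 for Csf3r, 1.49 for Itgam, -0.15 for Ncf1, 2.11 for Mmp8, 1.07 for Mmp9 and -1.06 for Mpo. In JZL184 against SAP they were then 1.45, 1.09, -0.88, -0.51, 0.64, -0.98, 0.35 and -0.28 in the same order of genes. All kept their sign apart from Mpo in JZL184 against SAP.

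Without JZL184 library 3 the members in JZL184 against SAP were at 2.17 for S100a8, 1.82 for S100a9, -0.57 for Csf3r, -0.40 for Itgam, 0.92 for Ncf1, -0.79 for Mmp8, 0.84 for Mmp9 and 0.09 for Mpo, none of them called. Against control they were at 7.75, 6.43, 2.05, 1.11, 0.77, 1.47, 1.68 and -1.29 in that order, and S100a8 (adjusted p = 0.00871) and S100a9 (adjusted p = 0.0103) were called. With only 1 control sample in use, S100a8 ran from 4.80 to 6.84 and S100a9 from 4.30 to 5.07 in SAP against control, and Csf3r from 2.43 to 2.86. The same 3 genes ran from 6.52 to 8.58, from 5.69 to 6.47 and from 1.61 to 2.06 in JZL184 against control.

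The order of levels changed between the groups. In FPKM, Ncf1 was highest in control (10.5 ± 0.87, SD, n = 2), and every Ncf1 value lay above every value of the next gene, S100a9. Mpo, Mmp9, S100a8 and Itgam followed at means of 0.458, 0.425, 0.38 and 0.312, with ranges that overlapped from each to the next. In SAP and in JZL184 the order was led by S100a8, S100a9 and Ncf1, whose ranges overlapped, and all Ncf1 values lay above those of the gene in rank 4, which was Mmp8 in SAP and Mmp9 in JZL184. Mpo, Elane and Fpr1 were the lowest members in both groups.

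Libraries differed in the mean level of the members. On the scale of log2 CPM (counts scaled to a common library size) centred on each gene's mean over the 10 samples, the mean of the 8 tested members was 1.41 in JZL184 library 2, 0.98 in SAP library 3, where 8 of 8 members were above their own mean, 0.86 in SAP library 1 and 0.77 in JZL184 library 1. It was -0.59 in SAP library 4 and -0.92 in JZL184 library 3, where 0 of the 8 members were above their own mean in either, and -1.65 and -1.03 in the control samples. The calgranulins weighed most in this mean. In JZL184 library 2, S100a8 and S100a9 were at 4.28 and 3.96 and the other members at -1.03 to 1.78. In control sample 1-2 they were at -5.07 and -3.94 and the other members at -1.74 to 0.88. The order of the libraries by this mean is therefore mostly that of the calgranulins. Libraries with high and low neutrophil genes were therefore found in both the SAP and the JZL184 group.

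The gene of the most like pattern was sought for each member by the root mean square difference in centred log2 CPM over the 10 samples, among 16562 other genes. S100a8 and S100a9 were closest to each other, at 0.53, with no other gene closer, and the nearest gene outside the members was Lilrb4 for both, at 0.99 and 0.74. Csf3r was closest to Cxcr2 (0.39), the receptor of the chemokines, and 0.47 from Itgam. Itgam was nearest to the lncRNA LOC108349559 (0.38), Mmp8 to Grem1 (0.34), Mmp9 to Lrrc25 (0.46), Ncf1 to Mafa (0.19) and Mpo to Tlcd1 (0.48). For Ncf1, Mmp8 and Mpo, 3235, 2251 and 9251 genes were closer than the closest member. The mean pattern of the 8 members was nearest to Gp6 (0.41), the lncRNA LOC103691754 (0.45), Enpp3 (0.50), Pcdhb7 (0.51) and Nfe2 (0.51), several of them genes of few reads.

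**Figure D4:**
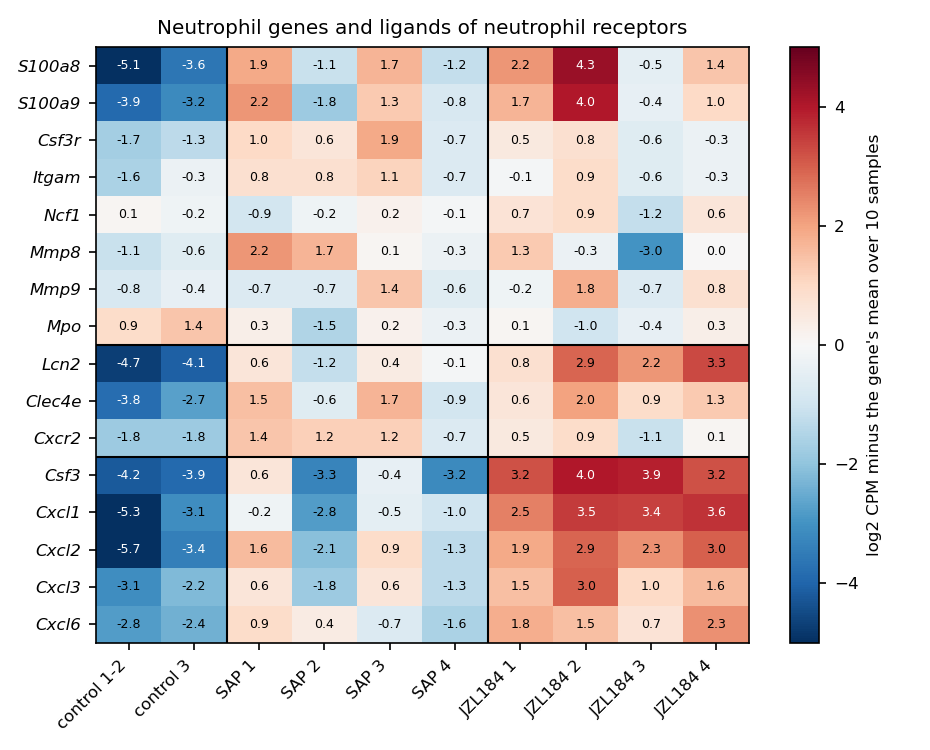
Log2 CPM of neutrophil genes and of ligands of neutrophil receptors, each minus the gene's mean over the 10 samples, with genes in rows and samples in columns. Red is above and blue below the gene's mean. The ligands Csf3 and Cxcl1 are above their mean in all JZL184 libraries, at 2.5 to 4.0, while S100a8 and S100a9 in JZL184 library 3 are at -0.5 and -0.4.

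Of 36 other neutrophil genes, 35 were in the tables and 28 were tested in SAP against control, 22 of them with a positive fold change and 6 with a negative one, at a median log2 of 0.61. None was called by edgeR, with 7 at an unadjusted p below 0.05, whereas DESeq2 called 5 and limma-voom 1. The shares over all genes were 9.09%, 1.14% and 0.0873%. Those with the smallest p over these and the ligand and inhibitor lists were Lcn2, a siderophore-binding protein of specific granules that gut epithelium also makes, Clec4e, a pattern receptor, and Cxcr2. Lcn2 had 1.82 and 3.25 FPKM in the control samples and 29.3 to 100.3 in SAP, and its log2 fold change was 4.51 (SE 0.64, adjusted p = 0.15). Clec4e had 1 and 3 reads in the control samples and 15 to 123 in SAP, a log2 fold change of 5.08 (SE 1.24, adjusted p = 0.459). Cxcr2 had no reads in control, 19, 15, 12 and 2 in SAP and 8, 8, 1 and 4 in JZL184. Pooled by group, this was 11.2-fold and 5.36-fold the floor of 3 reads over the control group, with counting error only allowed for.

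In JZL184 against control, 26 of the other neutrophil genes were tested, 17 positive and 9 negative, at a median log2 of 1.02. Of these Lcn2, Clec4e and Cebpd, a transcription factor of the acute phase, were called higher and none lower, where 2.16% of all genes were called. Lcn2 had 100.3 to 504.4 FPKM in JZL184 and a log2 fold change of 6.95 (SE 0.87, adjusted p = 0.0155), Clec4e one of 5.51 (SE 0.85, adjusted p = 0.0239) and Cebpd one of 2.61 (SE 0.47, adjusted p = 0.0357). All 3 calls were lost without JZL184 library 2 (adjusted p of 0.0545, 0.0615 and 0.0798), and those of Clec4e and Cebpd also without JZL184 library 4. With only 1 control sample in use, log2 fold changes ran from 6.63 to 7.33 for Lcn2, from 4.61 to 6.79 for Clec4e and from 2.25 to 3.08 for Cebpd. Calls are not given for such fits, since 1 sample cannot measure the spread of the control group. In JZL184 against SAP, 26 were tested, 15 positive and 11 negative, at a median log2 of 0.15. None was called by edgeR, with 6 at an unadjusted p below 0.05, whereas DESeq2 called 6 and limma-voom 2. Over all genes 21.3% had such a p, so that 6 of 26 is near the background, and DESeq2 called 6.98% and limma-voom 4.57%. Lcn2 was higher in all JZL184 libraries than in all SAP libraries by normalised counts, with a log2 fold change of 2.47 (SE 0.55, adjusted p = 0.0856).

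Among the ligands of neutrophil receptors, Csf3 (G-CSF) had 2 reads in all over the control libraries, 89, 3, 31 and 3 in SAP libraries 1 to 4 and 430, 554, 637 and 341 in JZL184 libraries 1 to 4. Every JZL184 library was above every SAP library, JZL184 library 3 included, in which all 8 tested members were below their mean. The log2 fold change of Csf3 was 4.94 (SE 1.77, adjusted p = 0.459) in SAP against control, 4.35 (SE 0.89, adjusted p = 0.0851) in JZL184 against SAP and 9.25 (SE 0.64, adjusted p = 0.00224) in JZL184 against control. The last was called in edgeR and rests on 2 control samples. It was 8.84 without control sample 1-2 and 9.54 without control sample 3.

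Cxcl1, a chemokine that binds Cxcr2, had 0.75 and 4.15 FPKM in the control samples, 35.4, 5.9, 25.7 and 17.4 in SAP and 218, 339.2, 387.9 and 411.2 in JZL184. The 3 groups did not overlap. Its log2 fold change was 3.00 (SE 0.92, adjusted p = 0.459), 4.18 (SE 0.54, adjusted p = 0.0604) and 7.14 (SE 0.83, adjusted p = 0.0144), and in JZL184 against SAP its adjusted p was the smallest of all genes tested by edgeR. Over all genes edgeR called 2.16% in JZL184 against control. Of 7 ligands tested, 5 were called higher there, namely Csf3, Cxcl1, Cxcl2 (log2 fold change 7.32), Cxcl3 (4.59) and Cxcl6 (4.41). The calls of Cxcl1, Cxcl2 and Cxcl6 were lost without JZL184 library 2 and that of Cxcl3 without JZL184 library 4. All 5 rest on 2 control samples. With 1 of these in use, values ran from 6.38 to 8.72 for Cxcl1 and from 6.21 to 10.08 for Cxcl2. They ran from 4.16 to 5.15 for Cxcl3 and from 4.22 to 4.58 for Cxcl6. In JZL184 against SAP none of the 7 was called by edgeR, with 6 at an unadjusted p below 0.05, whereas DESeq2 called 6 and limma-voom 5. The shares over all genes were 0%, 21.3%, 6.98% and 4.57% in that order. C3, the source of complement fragments, was the ligand with a negative value there, at a log2 fold change of -1.83 (SE 1.11, adjusted p = 0.344), with 32.3 ± 51.1 FPKM (SD, n = 4) in SAP and 7.31 ± 5.14 (n = 4) in JZL184. It was named after its values were seen, and a single SAP library, with 20556 reads, lay far above the others. In SAP against control no ligand was called by edgeR or limma-voom, with 5 at an unadjusted p below 0.05, whereas DESeq2 called 4. Of all genes 9.09% had such a p, and DESeq2 called 1.14% and limma-voom 0.0873%. The median log2 fold change of the ligands was 2.90 in SAP against control, 2.09 in JZL184 against SAP and 4.59 in JZL184 against control, beside 1.92, 0.29 and 1.23 for the members.

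Of 6 inhibitors of neutrophil proteases, Timp1 and A2m were called higher by edgeR in JZL184 against control, where 2.16% of all genes were called. Timp1, which blocks matrix metalloproteinases, had a log2 fold change of 2.57 (SE 0.40, adjusted p = 0.0239). For A2m, a broad protease inhibitor, it was 2.45 (SE 0.47, adjusted p = 0.0427). At an unadjusted p below 0.05 there were 2 of 6, against 26.3% of all genes. DESeq2 and limma-voom each called 2, against 11.7% and 18.3% of all genes. Timp1 and A2m both lost the edgeR call without JZL184 library 2 or 4. Timp1 also lost it with all 3 groups in 1 fit (adjusted p = 0.0531) and A2m with gene length offsets (0.0528). Log2 fold changes with 1 control sample in use ran from 2.34 to 2.82 for Timp1 and from 2.28 to 2.6 for A2m. The elastase inhibitors Slpi, Serpinb1a and Serpina1 had log2 fold changes of -0.09, 0.00 and 0.35 there. By edgeR no inhibitor was called in SAP against control or in JZL184 against SAP, with 2 and 1 at an unadjusted p below 0.05. DESeq2 called 0 and 1 of them there and limma-voom 0 in both. Of all genes 9.09% and 21.3% had such a p, so that 1 of 6 in JZL184 against SAP is near the background. DESeq2 called 1.14% and 6.98% of all genes, and limma-voom 0.0873% and 4.57%.

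Markers of other cells moved too, and their part in the results on neutrophil genes was not tested. Macrophages also express Itgam, Ncf1 and Mmp9, and the 12 macrophage markers summed to 408 to 481 CPM in control, 277 to 574 in SAP and 172 to 450 in JZL184. Cd163 (log2 fold change 2.99, adjusted p = 0.0398) and Mrc1 (2.34, adjusted p = 0.0454) were called higher in JZL184 against control, while Csf1r (-1.42, adjusted p = 0.0631) and C1qa (-1.21, adjusted p = 0.113) were lower in all JZL184 libraries than in both control samples by normalised counts without a call by edgeR. DESeq2 called Csf1r and limma-voom called both. Of the 11 macrophage markers tested there, 4 had positive and 7 negative fold changes, at a median log2 of -0.18, and Vsig4 was at 0 in 4 libraries. Over this list edgeR called 2, DESeq2 3 and limma-voom 4, against 2.16%, 11.7% and 18.3% of all genes. Of the 11 tested in SAP against control, 8 were positive and 3 negative, at a median log2 of 1.06. By edgeR none was called and 4 were higher at an unadjusted p below 0.05 (9.09% of all genes). DESeq2 called 2 (1.14% of all genes). C1qa, with the most reads of the list, had a mean FPKM of 243 in control and 195 in SAP, and Cd163 had 0.708 and 6.49. In JZL184 against SAP 3 were positive and 8 negative, at a median log2 of -0.73. Mast cell markers, 7 in all, summed to 146 to 171 CPM in control, 43.9 to 120 in SAP and 15.4 to 29 in JZL184, without overlap. Mcpt2 made up most of the control sum, with 11541 reads over the control libraries. Of 5 tested, Fcer1a, Mcpt2 and Cpa3 were called lower in JZL184 against control, where 2.16% of all genes were called. Kit went the other way, with mean FPKM of 0.815 in control, 2.0 in SAP and 1.31 in JZL184.

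Eosinophil markers, 6 in all, were near 0 throughout, at 1.14 to 4.61 CPM, with the defining gene Epx at 0 in 7 libraries. Erythrocyte markers, which bear on blood left in the tissue, summed to 77.7 to 199 CPM in control, 33.7 to 218 in SAP and 148 to 437 in JZL184. The pan-leukocyte gene Ptprc had 14 to 43.5 CPM in control, 26.9 to 179 in SAP and 15.8 to 139 in JZL184, and JZL184 library 2, the highest in S100a8, was at 15.8. Ileal epithelium markers summed to 34000 to 35300 CPM in control, 13200 to 22300 in SAP and 8210 to 19600 in JZL184, lowest in JZL184 library 3. Muscle and stroma markers summed to 3360 to 3460, 2990 to 4170 and 1060 to 4850 CPM. Of 7 tested, only Col1a1 was called by edgeR in JZL184 against control, lower (log2 fold change -2.49, adjusted p = 0.0462), beside 2.16% of all genes.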

How the data were processed

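The authors trimmed the reads of stranded mRNA libraries, removed short reads, aligned the rest to mRatBN7.2 with HISAT2 and kept uniquely aligned reads. They deposited raw read counts per gene and, beside them, FPKM values normalised for gene length and library size. Neither the counting tool nor the gene annotation is named in the sources read here.

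Groups were taken from the treatment labels. Control libraries 1 and 2 were summed (counts) or averaged (FPKM). Counts of all genes were tested by pairs of groups with edgeR 4.0.16 (quasi-likelihood, TMM, filterByExpr with minimum count 10, Benjamini-Hochberg over all genes tested) in R 4.3.3. DESeq2 1.42.0 (DESeq2 was also the tool of the authors), limma 3.58.1, other normalization, no filter, gene length offsets (loess span 0.3, lengths from counts and FPKM), 3 separate control libraries, a replicate block and leaving out libraries were alternatives. Exact permutation tests used scipy on FPKM. The fits were first tested on simulated data.

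Members and lists were chosen with earlier results of these data known. Named were all members, genes of the lists of neutrophil genes, ligands and inhibitors that were called or had the 3 smallest p in a comparison, Csf3, called or defining markers, and the genes of closest pattern. Other genes are named after their values were seen. Where nothing says that libraries came from separate cages or days, p values measure the spread between these samples. The result of 1 gene of the lists is not reported here.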

Additional observations from a re-analysis of the deposited data

Results flagged for a closer look

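In 4 of 20 groups of 4 libraries, 1 library stood further from the rest than Dixon's critical value for 4 values allows. Chance gives about 1 in 20 for values that follow a normal distribution, which was not shown for these FPKM values. The rate does not apply to Fpr1, where a lone read passes by construction. Itgam in SAP library 4 had 0.34 FPKM, with the other SAP libraries at 1.24 to 1.32. Mmp9 in SAP library 3 had 1.97 FPKM, with the others at 0.45 to 0.52. Fpr1 had 0.01 FPKM in SAP library 1 and 0.02 in JZL184 library 4, each from 1 read with 0 reads in the others of the group.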

How the results depend on the processing

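No member was called in any fit of JZL184 against SAP. In SAP against control, 3 members were called by DESeq2, 2 without SAP libraries 1 and 2 and 5 by DESeq2 with 3 separate control libraries. In JZL184 against control, 3 were called by DESeq2, by limma-voom and by edgeR with 3 separate control libraries, 5 by DESeq2 with 3 separate control libraries and 2 without a filter on low counts. The cause of these differences was not tested. Fits with 3 separate control libraries count the nearly identical control libraries 1 and 2 as 2 samples. Shares of all genes called are given only for edgeR, DESeq2 and limma-voom with the joined control sample and no sample left out. The counts of members in the other fits therefore have no background beside them.

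With the replicate number as a block and 3 separate control libraries, 2 members were called in JZL184 against control, and 2 with gene length offsets added, while the block gave 0 in the other comparisons. No pairing by number was seen, with deviations from the group means that correlated from -0.45 to 0.12 over 10 same-numbered pairs, 2 of them above 0.1. Groups this small cannot exclude a pairing.

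Leaving out 1 SAP or JZL184 sample gave 0 to 2 members called in JZL184 against control. It gave 0 in the other comparisons, where edgeR called 0% of all genes with all samples. Where a control sample was left out, the lone control sample was assumed to vary like the other group, and calls are not given. The log2 ratio difference of S100a8 to S100a9 ran from -0.01 to 0.38, turning without SAP library 4. Log2 fold changes ran from -0.29 to 0.05 for Ncf1 in SAP against control, and in JZL184 against SAP from -0.08 to 1.39 for Mmp9 and from -0.28 to 0.22 for Mpo. Without SAP libraries 1 and 2 Ncf1 was at 0.10 in SAP against control, Mmp8 at 0.29 and Mpo at -0.18 in JZL184 against SAP, and without a filter Mpo was at -0.01. The number of members at the smallest permutation p was the same after adding 1 or 0.1 and taking log2. It could not differ, since these steps keep the order of the samples, so that this says nothing on the scale used. Fpr1 and Elane, with 0 to 8 reads per library, could not be tested at this depth.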
